A study of Arabidopsis thaliana with 12 samples.

Results

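Genes tied to the work of mature guard cells, 4 in number, were followed across Arabidopsis thaliana seedlings of 4 genotypes. They are GC1 (AT1G22690), BLUS1 (AT4G14480), CHX20 (AT3G53720) and AT1G68600, a gene of the malate transporter family. The members were chosen by gene identity, and each was read by 1 probe set (264195_at, 245616_at, 251906_at and 262232_at), so the 4 genes stand for 4 of the 22746 probe sets tested. All arrays measured total RNA of whole Col-0 seedlings harvested 5 days after germination, following stratification for 2 days at 4 °C and growth at 21 °C under a daily cycle of 18 h light, 6 h dark. There were 3 biological replicates, numbered 2 to 4, of wild type (WT), of spch, of scrm-D and of scrm-D;mute, which is called the double mutant here. The sources used here give neither the alleles of SPCH and MUTE nor whether a replicate pooled seedlings.

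Guard cells are the paired cells that open and close a stoma by taking up or releasing potassium ions, malate and other solutes. They form at the end of a lineage in which the transcription factors SPCH, MUTE and FAMA act in turn with the partner SCRM, of which scrm-D is a dominant allele. According to the labels, the spch epidermis holds pavement cells alone, that of scrm-D holds guard cells, and that of the double mutant holds almost nothing but meristemoids, the dividing precursors of guard cells. The promoter of GC1 is widely used to drive genes in guard cells, and the gene encodes a small peptide of the gibberellin-regulated (GASA) family. BLUS1 is a protein kinase that passes the blue light signal from phototropins to the proton pump of the guard cell plasma membrane. CHX20 is a cation/proton exchanger of internal membranes that takes part in the osmotic control of stomatal opening. The ALMT family, to which the malate transporter AT1G68600 belongs by its annotation, encodes anion channels, and some of its members carry malate across guard cell membranes.

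Values are log2 expression as deposited, and array medians lay between 6.39 and 6.53. Spiked bacterial control transcripts read on arrays without that spike centred on 4.00 (median), and their 95th percentile, 4.99, is used below as the background level. SPCH read 6.36 ± 0.31 (SD, n = 3) in WT, 5.31 ± 0.18 in spch and 10.77 ± 0.18 in the double mutant. MUTE read 4.48 ± 0.05 in WT and 10.78 ± 0.20 in the double mutant. The sources used here do not say whether these probe sets lie outside the lesions, so the readings check little about the labels. The 6 measured genes of mesophyll and photosynthesis, which whole seedlings should express, averaged at least 11.36 on every array. The 2 root markers averaged at least 5.74 on the arrays of WT, scrm-D and the double mutant, but 4.96 to 5.14 on those of spch, about the background level. A difference in a whole seedling cannot tell fewer cells of a type from less RNA per cell. One array stood apart for these genes, spch replicate 4, and results that rest on it are given with and without it.

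All 4 genes shared one order of genotypes: highest in scrm-D, then WT, then spch and the double mutant, which did not differ from each other by the test. On every array of scrm-D each gene read higher than on any WT array, and on every WT array it read higher than on any array of spch or of the double mutant. Such a complete order of arrays was present in 76 of the 22746 probe sets (0.334%). The genes were taken up with earlier results of these data known, so this share is a description and not a test.

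**Figure D1:**
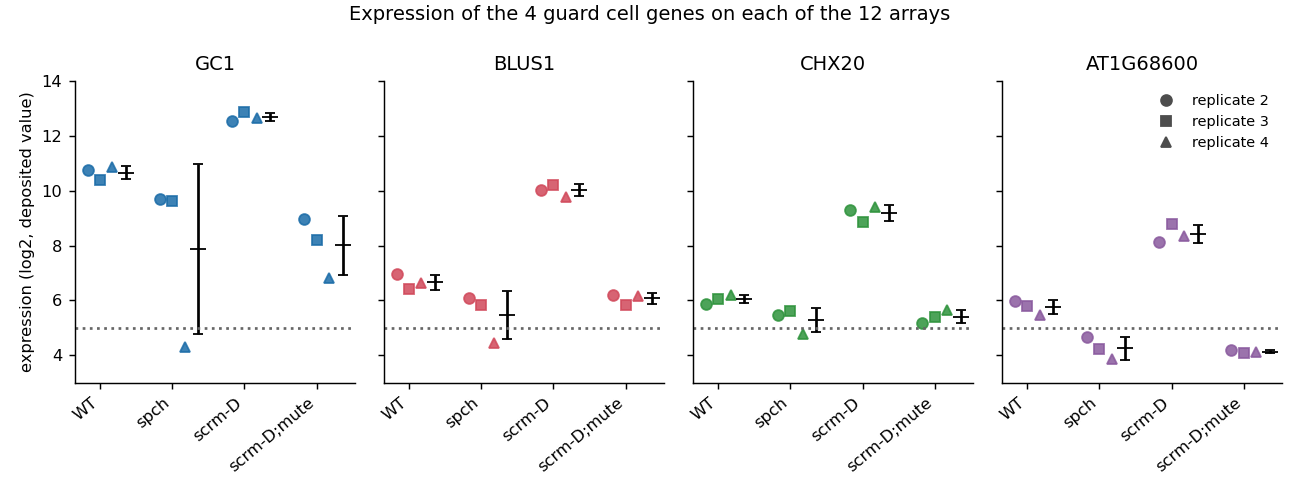
Expression (log2, vertical axis) of GC1, BLUS1, CHX20 and AT1G68600 on the 12 arrays, by genotype. Each symbol is 1 array, its shape gives the replicate number, the black bar is the mean ± SD (n = 3) and the dotted line is the background level of 4.99. Every scrm-D array lies above every other array, and GC1 on spch replicate 4 (4.31) lies far below spch replicates 2 and 3 (9.70 and 9.64).

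BLUS1, the blue light kinase, was the most strongly raised of the 4 in scrm-D. It read 10.03, 10.22 and 9.78 on scrm-D replicates 2, 3 and 4, against 6.95, 6.42 and 6.62 in WT. On the spch arrays it read 6.10, 5.83 and 4.45, the last under the background level, and on the double mutant arrays 6.21, 5.85 and 6.16. No array of scrm-D came within 2 log2 units of any other array, while the spch and double mutant values overlapped. BLUS1 rose 10.2-fold in scrm-D over WT (log2 difference 3.35 ± 0.33 SE, limma adjusted p = 3.37e-05) and fell 2.30-fold in spch (−1.20 ± 0.33, adjusted p = 0.0218). Without spch replicate 4 the spch difference shrank to −0.70 ± 0.19 and still passed (adjusted p = 0.0275). The spch call ended without WT replicate 2 (adjusted p = 0.081) or WT replicate 4 (adjusted p = 0.0525). It also ended in a fit of the WT and spch arrays alone (0.0652). In the double mutant BLUS1 differed from WT by −0.59 (95% interval −1.30 to 0.12, adjusted p = 0.215). Without spch replicate 4, which widens the shared error of this gene, that difference passed (adjusted p = 0.0191), as it did in a fit of the 2 genotypes alone (adjusted p = 0.0291).

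CHX20, the endomembrane exchanger, showed the tightest replicates in WT. Its values were 5.88, 6.06 and 6.20 in WT and 9.28, 8.87 and 9.42 in scrm-D, a rise of 8.82-fold (3.14 ± 0.21 SE, adjusted p = 2.26e-06). In spch it read 5.47, 5.62 and 4.78, and in the double mutant 5.19, 5.39 and 5.65. Both sets lay wholly under the WT values and overlapped each other. It fell 1.69-fold in spch (adjusted p = 0.0256) and 1.56-fold in the double mutant (adjusted p = 0.0415). Neither fall was firm. The spch difference of −0.76 shrank to −0.50 without spch replicate 4 and no longer passed (adjusted p = 0.0951). It also missed the threshold without WT replicate 3 (adjusted p = 0.07) or WT replicate 4 (adjusted p = 0.0855). The double mutant call ended without any 1 of 6 arrays, among them all 3 of WT, with adjusted p up to 0.145.

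AT1G68600, the malate transporter family gene, was the member with a level under background in 2 genotypes. It read 5.98, 5.81 and 5.47 in WT and 8.13, 8.78 and 8.35 in scrm-D, 6.35-fold higher (2.67 ± 0.21 SE, adjusted p = 6.57e-06). On the spch arrays it read 4.67, 4.24 and 3.85, and on the double mutant arrays 4.19, 4.08 and 4.11. All 6 of these values lie under 4.99, so the fall from WT is given against that level: AT1G68600 was at least 1.70-fold lower in spch (adjusted p = 0.000465) and at least 1.70-fold lower in the double mutant (adjusted p = 0.000124). It was the one member whose calls held under every alternative tried in all 3 comparisons with WT.

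GC1, the guard cell marker, had by far the widest spread. It read 10.74, 10.38 and 10.86 in WT and 12.54, 12.86 and 12.66 in scrm-D, 2 tight groups 2.03 log2 units apart. In the double mutant it read 8.98, 8.21 and 6.84. On spch replicates 2 and 3 it read 9.70 and 9.64, about 1 log2 unit under WT, but on spch replicate 4 it read 4.31, a value under the background level. The residual SD of GC1 within genotypes was 1.65, the largest of all 22746 probe sets, whose median was 0.18. Without spch replicate 4 it was 0.60.

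That 1 array decided the test of GC1 in comparisons it does not belong to, because all 12 arrays share the error. With all arrays GC1 exceeded its WT level 4.08-fold in scrm-D (2.03 ± 1.08 SE) and missed the threshold (adjusted p = 0.27). Without spch replicate 4 the same difference had an SE of 0.39 and passed (adjusted p = 0.00393), and a fit of the scrm-D and WT arrays alone gave adjusted p = 8.81e-05. The double mutant differed from WT by −2.65 ± 1.08 (adjusted p = 0.09), or by −2.65 ± 0.39 (adjusted p = 0.000335) without spch replicate 4. In spch the difference from WT was −2.78 ± 1.08 (adjusted p = 0.0976) with all arrays. It was −0.99 ± 0.43 (adjusted p = 0.174) without spch replicate 4, and passed with the replicate number as a block (adjusted p = 0.0463). It also passed without spch replicate 2 (−3.69, adjusted p = 0.045) or spch replicate 3 (−3.66, adjusted p = 0.046), fits in which replicate 4 weighs more. GC1 on spch replicates 2 and 3 thus lay nearer to WT than to the third spch array, in seedlings labelled as having pavement cells alone.

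**Figure D2:**
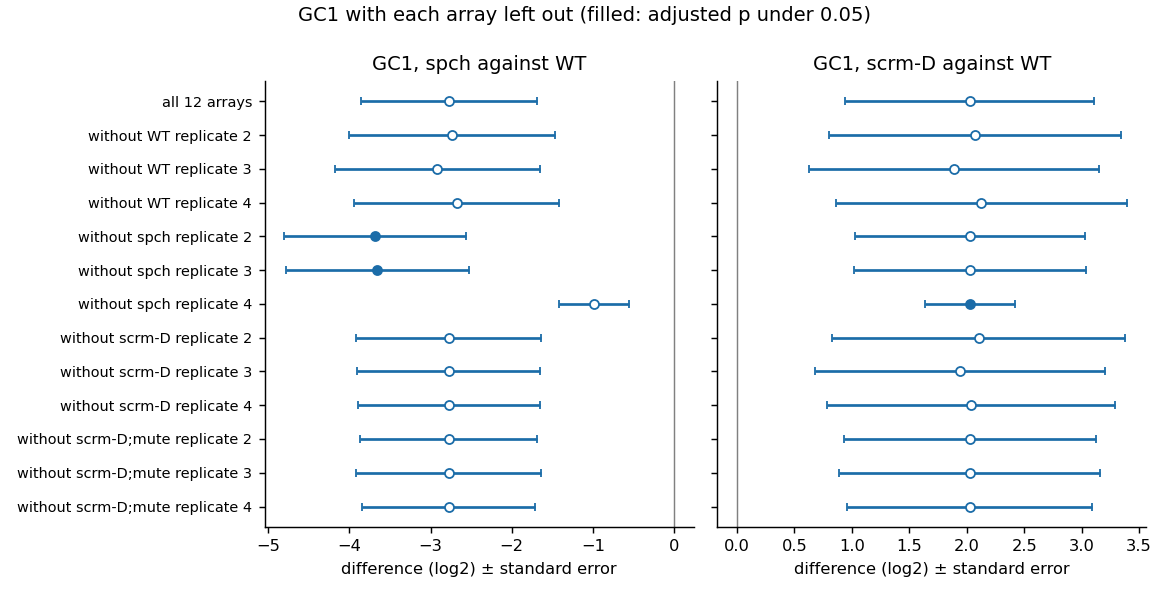
Log2 difference of GC1 (horizontal axis, ± standard error) between spch and WT on the left and scrm-D and WT on the right, with all 12 arrays and with each array left out in turn. Filled points passed at an adjusted p under 0.05. Leaving out spch replicate 4 moved the spch difference from −2.78 to −0.99 and made the scrm-D difference of 2.03 pass.

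Set against each genotype's background of calls, 3 of the 4 genes were called between spch and WT, all lower, where 19.5% of all probe sets were called and 9.93% were called lower. Between scrm-D and WT 3 of 4 were called higher, where 14.2% of probe sets were called and 6.76% were called higher. Between the double mutant and WT 2 of 4 were called lower, CHX20 and AT1G68600, where 27.7% were called and 13.6% were called lower. All 4 genes had non-overlapping groups in each of these 3 comparisons, a pattern shown by 35.1%, 30.0% and 41.4% of all probe sets. The median log2 difference of the 4 genes was −1.35 in spch, 2.90 in scrm-D and −1.13 in the double mutant, beside medians over all probe sets of −0.0045, −0.0143 and −0.0074. In spch and the double mutant that median uses the deposited values of AT1G68600, which lay under background there, so the size of the median is uncertain. These 3 comparisons share the WT arrays. CHX20 and AT1G68600 were called in all 3, higher in scrm-D and lower in the other two, as were 30 of the 22746 probe sets (0.132%).

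All 4 genes fell in the double mutant relative to scrm-D, where 13.4% of probe sets were called and 5.94% were called lower, and their groups did not overlap, as in 28.4% of probe sets. GC1 fell 25.6-fold (−4.68 ± 1.08 SE, adjusted p = 0.0126), BLUS1 15.3-fold (−3.94 ± 0.33, adjusted p = 5.49e-06) and CHX20 13.7-fold (−3.78 ± 0.21, adjusted p = 1.87e-07). AT1G68600 fell at least 10.8-fold against the background level (adjusted p = 5.88e-08). In the order of fitted differences over all 22746 probe sets, from the most negative, GC1 was number 7, BLUS1 number 14 and CHX20 number 15. AT1G68600 has only a bound here and is given no place. The GC1 call ended with an intensity trend and a robust prior (adjusted p = 0.054) and was firmer without spch replicate 4 (adjusted p = 6.82e-06).

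Relative to spch, scrm-D was also higher for all 4 genes, where 30.0% of probe sets were called and 15.3% were called higher, again with no overlap of groups (40.9% of probe sets). The rise was 27.9-fold for GC1 (adjusted p = 0.00486), 23.5-fold for BLUS1 (adjusted p = 1.35e-06), 14.9-fold for CHX20 (adjusted p = 2.12e-07) and at least 10.8-fold for AT1G68600 (adjusted p = 1.45e-07). Without spch replicate 4 the log2 difference of GC1 was 3.02 in place of 4.80, and it still passed (adjusted p = 0.000382). Leaving out 1 array at a time, the lowest log2 difference was 4.05 for BLUS1 and 3.65 for CHX20. Both genes passed throughout (highest adjusted p = 1.85e-05 and 3.73e-06). All 4 genes were thus called higher in scrm-D than in both spch and the double mutant, as were 3.07% of probe sets.

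Between spch and the double mutant, none of the 4 genes was called by limma, with 0 at an unadjusted p under 0.05, where 33.2% of probe sets were called. None had non-overlapping groups, against 44.0% of probe sets. The double mutant minus spch was 0.61 for BLUS1 (95% interval −0.10 to 1.33), 0.12 for CHX20 (−0.34 to 0.58), −0.13 for AT1G68600 (−0.59 to 0.33) and 0.13 for GC1 (−2.23 to 2.48). The intervals leave room for differences of over 2-fold in BLUS1 and far more in GC1. BLUS1 passed without spch replicate 2 (0.93, adjusted p = 0.0485). For AT1G68600 both groups lie under background, so their difference carries little. For GC1 the sign turned with single arrays: the difference was −1.66 ± 0.43 and passed without spch replicate 4 (adjusted p = 0.0119), and was −0.36 without the double mutant's replicate 2 (adjusted p = 0.878). The sign of CHX20 also turned without spch replicate 4 or the double mutant's replicate 4, to −0.13 at the lowest, and did not pass. That of AT1G68600 turned without spch replicate 2.

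**Figure D3:**
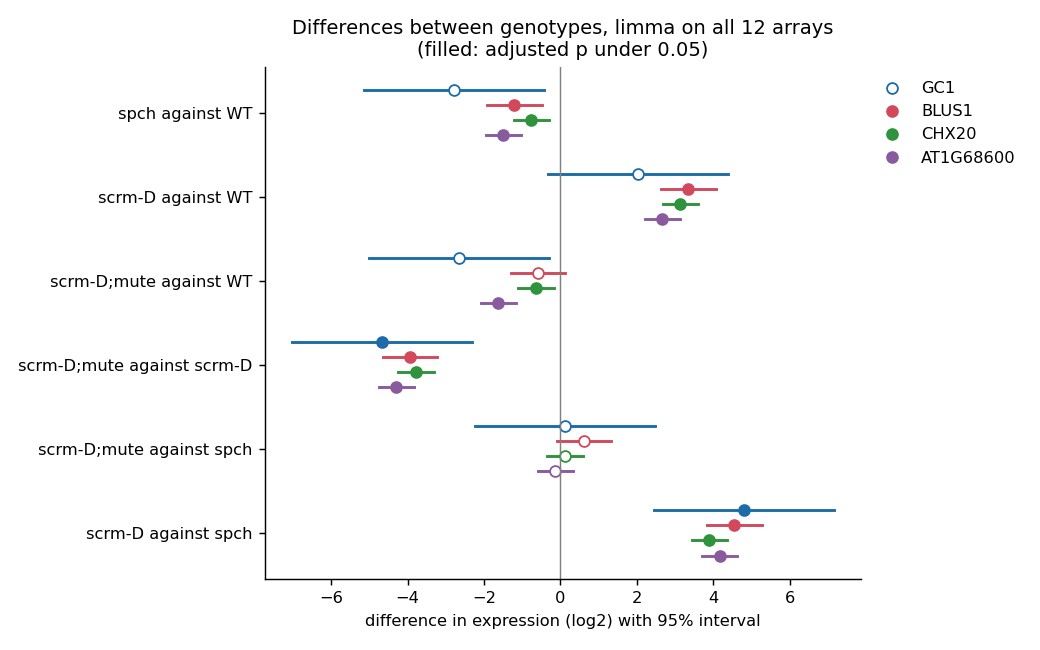
Log2 differences (horizontal axis) for the 6 pairs of genotypes, the first named minus the second, with the 95% interval of the limma fit on all 12 arrays as a line. Filled points passed at an adjusted p under 0.05. The intervals of GC1 are the widest in every pair, and in the pair of scrm-D;mute and spch no gene passed.

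On spch replicate 4 all 4 genes were the lowest of the 3 spch arrays, by different amounts. All 4 readings there lay under background, so the gap to the next spch array is a bound: at least 4.65 log2 units for GC1, 0.84 for BLUS1 and 0.48 for CHX20. AT1G68600 lay under background on all 3 spch arrays, and its gap cannot be measured. FAMA (AT3G24140), the transcription factor that completes guard cell formation, was also lowest there, at 5.64 against 6.36 on the highest spch array. In the values as deposited, the gap of GC1 was the largest among all 22746 probe sets, followed among named genes by AT1G33811, which read 8.49, 8.29 and 4.24 on spch replicates 2, 3 and 4, and BCAT4, which read 9.90, 10.02 and 6.14. BCAT4 encodes an aminotransferase of methionine-derived glucosinolate synthesis, and it differed between scrm-D and WT by −0.35 (adjusted p = 0.834). These 2 genes were picked after their values were seen.

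The low readings of that array were not limited to genes that were high in scrm-D. Counting probe sets that lay at least 1 log2 unit under both other arrays of their genotype, spch replicate 4 had 166, and the other 11 arrays had between 0 and 78. Of the 166, 21 (12.7%) were called higher in scrm-D than in WT, beside 6.76% of all probe sets. High readings were also many on this array: 116 probe sets lay at least 1 log2 unit over both other spch arrays. Replicate 4 of the double mutant had 115 such probe sets and replicate 4 of scrm-D had 95, against 28 or fewer on the other arrays. In the fit with array weights, these replicate 4 arrays had the lowest weights (0.608 in spch, 0.705 in the double mutant and 0.726 in scrm-D). The 25S rRNA control probe set read 11.04 on spch replicate 4, 8.66 and 9.19 on the other spch arrays and 7.11 ± 0.49 (SD, n = 3) in WT. With it as a covariate, the spch differences of BLUS1 (−0.79 ± 0.39, adjusted p = 0.256) and CHX20 (−0.38 ± 0.22, adjusted p = 0.352) no longer passed. The scrm-D differences from WT grew in that fit, to 3.76 for BLUS1 and 3.52 for CHX20. The control averaged 9.60 to 9.63 in the mutants, above WT, so the covariate and a difference from WT cannot be fully told apart. The part of the 25S control in these results was not tested. The second wide spread of GC1, in the double mutant, had its low value (6.84) on replicate 4, where the 25S control read 6.96 against 10.84 and 11.06 on the other two, the opposite side from spch. BLUS1 and CHX20 did not drop on that array. AT1G68600 read under background on every double mutant array, so a drop there could not be seen.

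**Figure D4:**
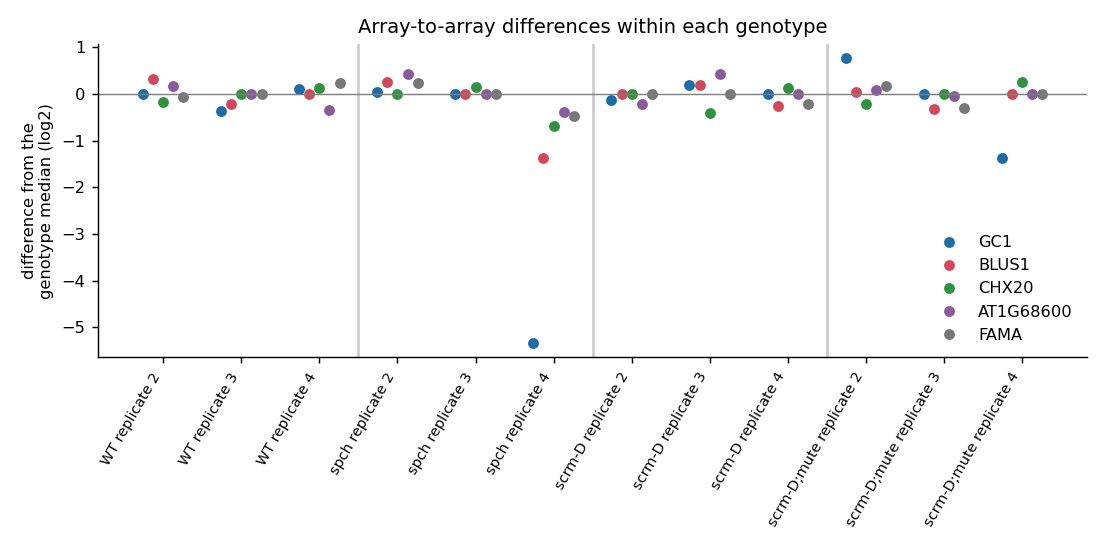
Difference of each array from the median of its genotype (log2, vertical axis) for the 4 genes and FAMA, with genotypes separated by grey lines. On spch replicate 4 all 5 genes lie under the median, GC1 by 5.34 as deposited, although GC1, BLUS1, CHX20 and AT1G68600 read under background there. On the double mutant's replicate 4, at the far right, GC1 lies low and BLUS1, CHX20 and FAMA do not. AT1G68600 reads under background on every double mutant array.

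Over the 12 arrays the 4 genes moved together to different degrees. Pearson's r, given as a description over arrays that fall into genotypes, was 0.976 between BLUS1 and CHX20, 0.964 between BLUS1 and AT1G68600 and 0.959 between CHX20 and AT1G68600. For GC1 it was 0.799 with CHX20, 0.848 with AT1G68600 and 0.854 with BLUS1, and without spch replicate 4 it was 0.843, 0.922 and 0.851. FAMA followed AT1G68600 (r = 0.983), CHX20 (0.983) and BLUS1 (0.977) more closely than GC1 (0.831, or 0.906 without spch replicate 4). Within genotypes, from the deviations of the 12 arrays from their genotype means, the 6 pairs ran from 0.0296 (CHX20 and AT1G68600) to 0.864 (GC1 and BLUS1). These values rest on spch replicate 4. Without it, a choice made after the values were seen, GC1 and BLUS1 gave 0.125, CHX20 and AT1G68600 gave −0.736, and the highest was 0.5565, between BLUS1 and AT1G68600.

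Genes with the most similar profile were sought among 9099 named probe sets above background in at least 1 genotype, by Pearson's r over the 12 arrays. For BLUS1 the first 5 were AT5G19580 (0.980), APL4 (0.980), AT3G28960 (0.978), AT5G18430 (0.978) and FAMA (0.977). APL4 is a large subunit of ADP-glucose pyrophosphorylase, an enzyme of starch synthesis. It rose in scrm-D by 2.35 on the log2 scale (adjusted p = 3.81e-06). For CHX20 they were AT1G75880 (0.993), AT1G60630 (0.989), AT1G78530 (0.989), AT5G02540 (0.986) and AT5G19580 (0.986). The gene nearest to it, AT1G75880, rose by 4.26 in scrm-D (adjusted p = 1.26e-07).

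For AT1G68600 the closest gene was FAMA (0.983), followed by AT5G02540 (0.982), SP1L2 (0.977), AT3G15350 (0.972) and AT2G21080 (0.972). SP1L2 belongs to the SPIRAL1 family of microtubule proteins. For GC1 the values were lower: AT5G25840 (0.947), Cpn60beta2 (0.946), AT1G33811 (0.933), AT5G14700 (0.930) and AT5G15950 (0.925). Cpn60beta2, a chloroplast chaperonin subunit, differed between scrm-D and WT by only 0.02 (adjusted p = 0.974). Only 7 probe sets exceeded an r of 0.9 with GC1, against 65 with BLUS1, 71 with CHX20 and 65 with AT1G68600. With spch replicate 4 left out, a choice made after the values were seen, 2 of the first 5 remained for GC1, 2 for BLUS1, 4 for CHX20 and 2 for AT1G68600. AT5G25840 stayed the nearest to GC1 (0.964).

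The few other genes of guard cell physiology that were measured did not all share this order. A gene is called measured where a probe set was matched to it alone, and unmatched probe sets were not searched. None of the 28 listed ion channels, pumps and transporters was analysed here, so what follows rests on few genes. Of 14 listed genes of light signalling, 4 were measured. BHP (AT4G18950), a Raf-like kinase that binds BLUS1, rose in scrm-D by 1.22 ± 0.14 SE (adjusted p = 0.000124) and further in the double mutant, by 2.67 ± 0.14 (adjusted p = 6.6e-08). It read between 9.97 and 10.28 in the double mutant, between 8.59 and 8.92 in scrm-D and between 7.23 and 7.68 in WT, with no overlap. BHP was thus highest in the double mutant, where BLUS1 fell 15.3-fold from its scrm-D level, and it differed between the double mutant and scrm-D by 1.45 (adjusted p = 2.13e-05).

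CBC2 (AT5G50000), a Raf-like kinase active in blue light and CO2 signalling, had genotype means in the order of the 4 genes, with small differences. Its scrm-D values (9.35 to 9.59) overlapped those of WT (9.18 to 9.37). It fell by 0.40 in spch (adjusted p = 0.0398) and by 0.59 in the double mutant (adjusted p = 0.00376), and differed by 0.20 in scrm-D (adjusted p = 0.345). The spch call ended with arrays shifted to one median (0.0552), with an intensity trend (0.0562), with the 25S control as a covariate (0.227) and without any 1 of 7 arrays (adjusted p from 0.0503 to 0.129). Its relative CBC1 (AT3G01490) and PATROL1 (AT5G06970), which helps deliver the proton pump to the membrane, were not called in any pair of genotypes. CBC1 differed from WT by 0.15 to 0.45 and PATROL1 by 0.03 to 0.20. Over the 4 measured light signalling genes, 1 fell in spch and none rose, 1 rose in scrm-D, and 1 rose and 1 fell in the double mutant, with medians of 0.15, 0.28 and 0.15. Of all probe sets, 19.5% were called in spch, 14.2% in scrm-D and 27.7% in the double mutant, so counts this small say little about the list.

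Of the 25 listed genes of abscisic acid and CO2 signalling, 1 was measured, RHC1 (AT4G22790), a MATE family transporter that acts in the CO2 response of guard cells. It too was highest in the double mutant, at 6.98 to 7.73, against 5.73 to 5.91 in scrm-D and 5.25 to 5.62 in WT. Its rise over WT was 1.82 ± 0.17 SE (adjusted p = 1.07e-05), and it differed by 0.34 in scrm-D (adjusted p = 0.245) and by −0.47 in spch (adjusted p = 0.0806). The spch difference passed in a fit of the 2 genotypes alone (adjusted p = 0.048), with array weights (0.0382), without the double mutant's replicate 4 (0.0236) and without replicate 4 of every genotype (0.0118). FAMA, the 1 measured gene of 10 listed guard cell factors, showed the order of the 4 genes. It read 9.56 ± 0.12 (SD, n = 3) in scrm-D, 6.90 ± 0.15 in WT, 6.04 ± 0.37 in spch and 5.89 ± 0.24 in the double mutant. All 3 differences of FAMA from WT passed, the spch one (adjusted p = 0.00493) no longer with the 25S control as a covariate (adjusted p = 0.0825).

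Among the measured relatives of the 4 genes, few were above background. The array may also read relatives not counted as measured, because 8794 probe sets had no listed gene. Of 27 other CHX genes 6 were measured and 1, CHX16 (AT1G64170), exceeded 4.99 in its highest genotype. CHX16 rose in both scrm-D genotypes, 3.20-fold in scrm-D (adjusted p = 0.0017) and 2.83-fold in the double mutant (adjusted p = 0.00175). It read 7.47 to 8.53 in scrm-D and 7.56 to 8.41 in the double mutant, which overlap, while CHX20 fell 13.7-fold between these same genotypes. Of 13 other ALMT genes 3 were measured, and ALMT10 (AT4G00910) lay at the background level in WT, at 4.98 to 5.07, with 1 of the 12 arrays above it. Its difference from WT passed in all 3 mutants (adjusted p = 0.00511 in spch, 0.000719 in scrm-D and 0.000236 in the double mutant). All 9 mutant values lay under background, so no size is given.

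Of 14 other GASA genes 5 were measured and GASA7 (AT2G14900) was above background. GASA7 rose in scrm-D by 1.06 ± 0.25 SE (adjusted p = 0.0122, and 0.0563 without scrm-D replicate 4) and fell in spch by 1.37 ± 0.25 (adjusted p = 0.00221). In the double mutant it read 7.64 to 8.69, which spans the WT values of 7.95 to 8.22 (difference −0.11, adjusted p = 0.8). GASA7 was higher in the double mutant than in spch, by 1.26 (adjusted p = 0.00158). The genes of other cell types moved as well. Of the 6 measured genes of mesophyll and photosynthesis, 3 fell in scrm-D, 5 fell in the double mutant and none was called in spch. Of all probe sets, 14.2%, 27.7% and 19.5% were called in either direction in scrm-D, the double mutant and spch. With the replicate number as a block LHCB4.2, a light-harvesting protein gene, also passed in spch (−0.52, adjusted p = 0.0101) and EPFL9, which encodes the peptide stomagen, in scrm-D (−1.23, adjusted p = 0.000878). Their mean per array was 12.43 to 12.49 in WT, 12.06 to 12.46 in spch, 11.41 to 11.89 in scrm-D and 11.36 to 11.67 in the double mutant. Of the root markers, EXPA18 fell in spch (adjusted p = 0.000119) to values under background. EXPA7 fell by 0.92 there (adjusted p = 0.0413), a call that ended without any 1 array of WT or spch (adjusted p from 0.0652 to 0.148), without the double mutant's replicate 3 (0.0566) and with the 25S control as a covariate (0.418). The part of these shifts in the differences of the 4 genes was not tested.

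**Figure D5:**
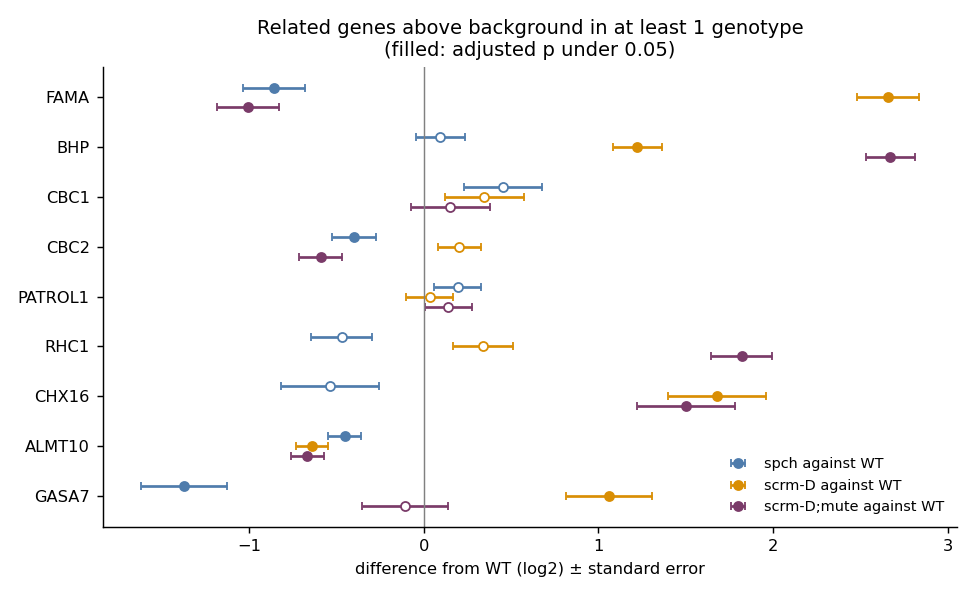
Log2 difference from WT (horizontal axis, ± standard error) in spch, scrm-D and scrm-D;mute for the 9 genes of the guard cell lists and the CHX, ALMT and GASA families that were above background in at least 1 genotype. Filled points passed at an adjusted p under 0.05. FAMA repeats the order of the 4 genes, whereas BHP and RHC1 were highest in scrm-D;mute and CHX16 was high in both scrm-D genotypes.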

How the data were processed

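The deposited table holds 1 log2 value per probe set and array for 12 Affymetrix arrays. RMA and limma are the tools that the submitters' processing notes list, with no version, and the sources used here name no genome build. Groups came from the titles, because the scrm-D samples carry a description that names scrm-D;mute. Gene names came from a table of GEO's platform annotation, which pairs 13513 of 22810 probe sets with 1 gene, and 13436 of these matched a TAIR10.1 locus. The 64 controls were left out of the tests. limma 3.58.1 in R 4.3.3 fitted 1 mean per genotype over all 12 arrays, with default moderation, two-sided tests and Benjamini-Hochberg adjustment over 22746 probe sets per comparison, called at an adjusted p under 0.05. The p-values reflect the spread among these samples alone, and the number of arrays limits precision. Spike controls read on arrays lacking the spike set the background level, without readings of 8 or more on the log2 scale. The 261 readings used include those of phe on the double mutant's replicate 4, which averaged 5.15, and the background level was not also set without them. A fold is written as at least where all 3 arrays of 1 group lay under that level.

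The members and lists were chosen with earlier results of these data known. All probe sets of the 4 genes were described, with the 5 most alike genes each and up to 6 genes per list. Deviations from the genotype means correlated over 0.1 between every pair of same-numbered arrays for spch with WT (0.138, 0.173 and 0.174), scrm-D with WT, scrm-D;mute with scrm-D and scrm-D;mute with spch, so the numbers were taken to pair these samples, from the values and not the labels. In the other comparisons the lowest correlation was 0.0826 (scrm-D;mute with WT) and 0.0338 (scrm-D with spch), under that level. If the numbers pair the samples of the comparisons above, they pair these samples as well. Some arrays with unlike numbers also correlated over 0.1, up to 0.2305 (scrm-D replicate 3 with spch replicate 2). The values alone therefore leave the pairing unsettled. The main tests fitted no replicate effect in any comparison, so their p-values leave the pairing out. Fits with the replicate number as a block are given as an alternative. The fit was tested on simulated data. Of the stomatal lineage list the text gives SPCH and MUTE, and no gene of the epidermis and phloem lists was analysed here.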

Additional observations from a re-analysis of the deposited data

Results flagged for a closer look

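Signals outside the main measurement stood out in the control probe sets. The 25S rRNA control averaged 9.63 ± 1.25 (SD, n = 3) in spch, 9.60 ± 0.56 in scrm-D and 9.62 ± 2.31 in the double mutant, above 7.11 ± 0.49 in WT. The double mutant's replicate 4, at 6.96, was not raised over the WT mean. The spiked phe transcript, present on the scrm-D arrays, averaged 5.15 over its 6 probe sets on the double mutant's replicate 4, against 4.15 to 4.34 on the 8 other arrays without it. Nothing about these readings was tested further.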

How the results depend on the processing

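Quantile normalization again, one median for all arrays and a background filter changed no direction or call of the 4 genes in any pair of genotypes. Some listed genes did change. Against WT with one median, CBC2 in spch missed (−0.36, adjusted p = 0.0552) and the mesophyll gene RCA passed in the double mutant (−0.29, 0.0365). With the filter EPFL9 passed in scrm-D (−1.23, 0.0393). After quantile normalization RCA missed between the double mutant and spch (−0.20, 0.101). With the replicate number as a block, GC1 passed in spch against WT (−2.78, adjusted p = 0.0463). It also passed in the double mutant against WT (−2.65, 0.0446), where the lowest same-numbered correlation was 0.0826. The block changed no other call of the 4 genes. Among mesophyll genes compared with WT it added LHCB4.2 in spch and EPFL9 in scrm-D, where the count of 3 became 4, or 5 with an intensity trend. In fits of 2 genotypes, BLUS1 in spch missed (−1.20, 0.0652), while GC1 in scrm-D (2.03, 8.81e-05) and in the double mutant (−2.65, 0.00321) and BLUS1 in the double mutant (−0.59, 0.0291) passed. With the 25S control as a covariate, BLUS1 (−0.79) and CHX20 (−0.38) in spch and CHX20 in the double mutant (−0.26, 0.483) missed, and 2108 and 3736 probe sets were called in place of 4442 and 6297. Array weights let GC1 pass in the double mutant against WT (−2.50, 0.0475), and against spch turned GC1 (−0.52) and CHX20 (−0.0004). An intensity trend with a robust prior ended the call of GC1 between the double mutant and scrm-D (−4.68, 0.054). Without replicate 4 of every genotype, GC1 passed in spch (−0.89, 0.0312), scrm-D (2.14, 0.000234) and the double mutant (−1.97, 0.000215), as did BLUS1 in the double mutant (−0.65, 0.0394), and CHX20 in spch missed (−0.43, 0.127). Against spch the double mutant then turned lower for GC1 (−1.08, 0.00612) and CHX20 (−0.26, 0.309). Leaving out 1 array at a time, spch against WT ran from −3.69 to −0.99 for GC1, −1.52 to −0.70 for BLUS1 and −0.92 to −0.50 for CHX20. GC1 in scrm-D ran from 1.89 to 2.13. In the double mutant against WT the ranges were −3.14 to −2.06 for GC1, −0.71 to −0.45 for BLUS1 and −0.76 to −0.53 for CHX20. Against spch they were −1.66 to 1.03 for GC1, 0.11 to 0.93 for BLUS1, −0.13 to 0.28 for CHX20 and −0.33 to 0.078 for AT1G68600. BLUS1 passed there without spch replicate 2 (adjusted p = 0.0485). Calls ran from 2955 (without spch replicate 4) to 4596 in spch, from 2127 (without scrm-D replicate 4) to 3496 in scrm-D, and from 1962 (without the double mutant's replicate 3; 1968 without its replicate 2) to 3333 between the double mutant and scrm-D. By likeness over the 4 genotype means, 0, 1, 1 and 0 of the 5 nearest genes of GC1, BLUS1, CHX20 and AT1G68600 were shared. The cause of these changes was not tested. AT1G68600 in spch and the double mutant, and all 4 genes on spch replicate 4, lie under the limit of signal over background.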
